A study of Homo sapiens with 4 samples.

Results

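The keratin genes KRT7, KRT8, KRT18, KRT19, KRT80, KRT81, KRT10, KRT5, KRT14 and KRT17, were followed in RNA-seq libraries of HeyC2 and SKOV3, both established lines of human ovarian cancer. They were taken by symbol, and all 10 were found among the 26506 symbols of the tables, which hold 55 keratin symbols in all. Each cell line was transfected with the plasmid pCMV6/TET1, from which TET1 is overexpressed, or with an empty plasmid (control, with the genotype label Wild-type), and both were kept in Geneticin. One library was sequenced for each of HeyC2 control, HeyC2 TET1, SKOV3 control and SKOV3 TET1, so no difference below has a replicate check and no p-value is given. The sources used here do not say whether the selected cells were 1 clone or a pool, and in pCMV6 the viral CMV promoter, not the gene's own, drives TET1.

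Keratins are the intermediate filament proteins of epithelial cells. A filament needs 1 acidic type I and 1 basic or neutral type II partner, so cells make keratins in pairs. KRT8 (type II) and KRT18 (type I) form the first pair of simple, single-layered epithelia, and KRT7 and KRT19 join them in ductal and glandular epithelia, including those of the female genital tract. KRT7 and KRT19 are for this reason widely used in diagnostic pathology of carcinomas. Only these 4 genes are simple epithelial keratins in the strict sense. KRT5 and KRT14 are the pair of basal cells in stratified epithelia, KRT17 is a keratin of basal and appendage cells that is induced on injury, KRT10 belongs to differentiating epidermis, KRT81 is a hair keratin, and KRT80 is a less studied type II keratin of many epithelia.

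Levels are given as FPKM, which scale the number of sequenced fragments by library size and by the length of the transcript, so genes can be set side by side. In the deposited tables GAPDH is equal in TET1 and control, and the spacing of the values shows that each TET1 column carries 1 constant factor, 3.23 in HeyC2 and 1.35 in SKOV3, which the sources used here do not mention. This constant was divided out, and all FPKM below are on that scale. A relative log2 change is log2(TET1 + 1) minus log2(control + 1), minus the median of the same difference over all genes with a mean of at least 1 FPKM in the line. This median was 0.06 in HeyC2 (11894 genes) and 0.19 in SKOV3 (13013 genes), against 1.61 and 0.59 on the columns as deposited. A gene was called higher or lower when it differed by at least 1.5-fold from that median, which is 0.58 on the log2 scale. Depth was not given and was estimated at 6620000 to 7300000 fragments per library. Intervals are exact 95% conditional binomial (Clopper-Pearson) intervals on fragments estimated from FPKM, transcript length and this depth, and they cover counting error only.

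TET1 itself was at 0.2 and 0.52 FPKM in HeyC2 control and TET1 and at 0.43 and 1.80 FPKM in SKOV3 control and TET1. These values rest on about 14 and 33 fragments in HeyC2 and 29 and 112 in SKOV3. The TET1 library was 2.60-fold higher (1.32 to 5.13) in HeyC2 and 4.18-fold higher (2.73 to 6.47) in SKOV3. In HeyC2 the mean of 0.36 FPKM was below 1 FPKM, and the relative log2 change of 0.28 was short of the 1.5-fold limit. In SKOV3 that change was 0.78. Across 13089 genes, Pearson's r of log2(FPKM + 1) was 0.96 between the HeyC2 libraries and 0.91 between the SKOV3 libraries, against 0.71 to 0.75 between libraries of different lines. The ovarian lineage factor PAX8 was at 74.6 to 194.7 FPKM in the 4 libraries, while WT1 and MUC16 were below 1 FPKM in all of them. Of the 6 epithelial markers EPCAM, CDH1, ESRP1, CLDN3, CLDN4 and CLDN7, none reached 1 FPKM in HeyC2 control, 1 did in HeyC2 TET1, and 4 and 5 did in SKOV3 control and TET1. Their summed FPKM was 1.87 and 5.41 in HeyC2 and 55.1 and 60.4 in SKOV3. HeyC2 thus held little of these epithelial transcripts although KRT8 and KRT18 were abundant in it.

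KRT7, KRT19 and KRT5 were much lower in SKOV3 TET1 than in SKOV3 control, while KRT8 and KRT18 stayed close to the all-gene median. In HeyC2 the picture was another: KRT7, KRT80 and KRT81 were higher in TET1, and none of the 10 was called lower. In these bulk libraries, fewer cells that express a gene and less of its RNA per cell cannot be told apart. In HeyC2, 7 of the 10 keratins passed the filter of a mean of 1 FPKM. Of these, 4 were called higher, where 12.5% of all genes tested were, and 0 were called lower, where 9.17% were. In SKOV3, 8 passed, and of these 1 was called higher and 3 lower, against 20.7% and 18.2% of all genes tested. The median relative log2 change was 0.62 over the 7 keratins in HeyC2 and 0.14 over the 8 in SKOV3, where the median of all genes is 0 by construction, and it was -0.49 in SKOV3 without the filter, over all 10 keratins. The HeyC2 median is the value of KRT19 itself, which rests on about 6 and 13 fragments. KRT19 and KRT5 passed in SKOV3 only through the control library, and KRT19 passed in HeyC2 only through the TET1 library, so for these a difference was built into the filter.

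**Figure D1:**
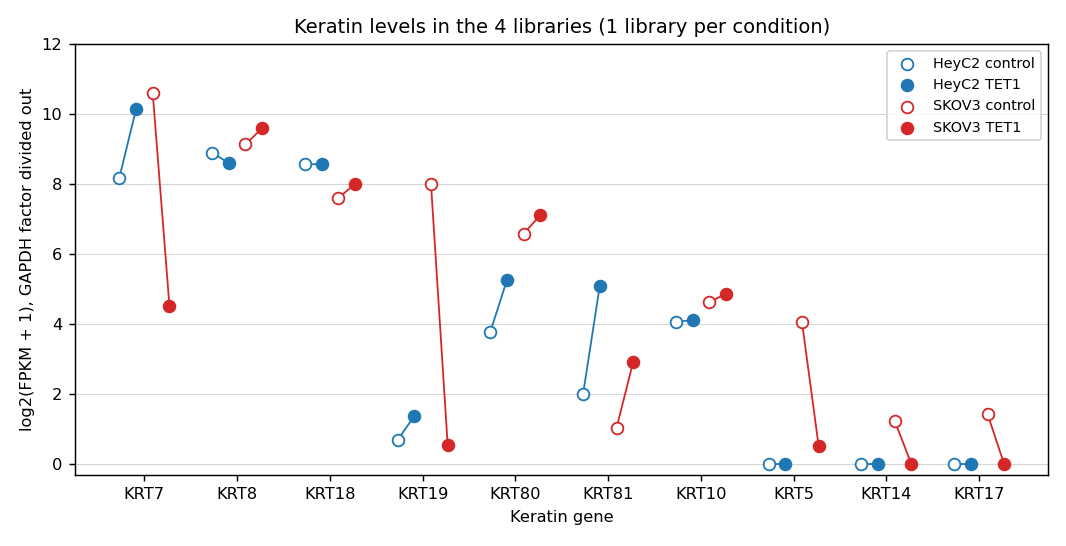
Levels of the 10 keratin genes as log2(FPKM + 1), with the GAPDH factor divided out. Open circles are control and filled circles TET1 libraries, blue is HeyC2 and red SKOV3, each circle is 1 library, and lines join the 2 libraries of a cell line. KRT7 goes from 1537 to 22.0 FPKM and KRT19 from 255.1 to 0.46 FPKM in SKOV3, while KRT8 and KRT18 change little.

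KRT8 and KRT18, the founding pair of simple epithelia, were among the most abundant transcripts of every library. KRT8 was at 475.7 FPKM in HeyC2 control, 386.3 in HeyC2 TET1, 559.9 in SKOV3 control and 774.6 in SKOV3 TET1. KRT18 was at 377.6, 378.8, 192.9 and 255.5 FPKM in the same order. For both genes the 2 libraries of a line lay close together and no library was near 0. KRT8 had a relative log2 change of -0.36 in HeyC2 and 0.28 in SKOV3, and KRT18 of -0.05 and 0.21, all short of the 1.5-fold limit. Counting error is small at these levels: the ratio of TET1 to control was 0.81 (0.78 to 0.85) for KRT8 and 1.003 (0.956 to 1.05) for KRT18 in HeyC2, and 1.38 (1.34 to 1.43) and 1.32 (1.24 to 1.41) in SKOV3. The ratio of KRT8 to KRT18 was 1.26 and 1.02 in HeyC2 control and TET1 and 2.90 and 3.03 in SKOV3 control and TET1, so the lines differed more in this balance than the conditions within a line did. The genes lie on opposite strands of chromosome 12 (GRCh37, KRT8 from 53290971 to 53343738 and KRT18 from 53342655 to 53346690), and their annotated spans share 1084 bases. This overlap rests on an outer start of KRT8, since its span is 52.7 kb and its main GENCODE transcript covers 7.9 kb. Both genes have many processed pseudogenes in the genome, so reads from near-identical copies may be split or merged in their values.

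KRT7, the type II keratin of glandular epithelia (chromosome 12, 52626304 to 52645970, plus strand), went in opposite directions in the lines. It was at 289.7 FPKM in HeyC2 control and 1125 in HeyC2 TET1, and at 1537 FPKM in SKOV3 control and 22.0 in SKOV3 TET1. The highest and the lowest of its 4 values were thus both in SKOV3. In SKOV3 control it was the 17th most abundant of all symbols, and in SKOV3 TET1 it stood at place 4135. The relative log2 change was 1.90 in HeyC2, the 95th highest of 11894 genes, and -6.26 in SKOV3, the second lowest of 13013 genes. KRT7 was 3.88-fold higher (3.73 to 4.04) in TET1 in HeyC2, and it was 70.0-fold lower (61.0 to 80.5) in SKOV3, where about 15825 fragments in control stood against about 211 in TET1. The difference between the lines was not tested, since each has 1 library per condition.

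KRT19, the smallest keratin and the one without a tail domain (chromosome 17, 39679869 to 39684560, minus strand), had the lowest relative log2 change of all 13013 genes in SKOV3, at -7.65. It was at 255.1 FPKM in SKOV3 control and 0.46 FPKM in SKOV3 TET1, which corresponds to about 2201 and 4 fragments. It was 554-fold lower, with a wide interval of 200.1 to 1885 because so few fragments remained. In HeyC2 it was near the limit of detection in both libraries, at 0.62 FPKM in control and 1.59 FPKM in TET1. With a mean of 1.10 FPKM and a relative log2 change of 0.62 it only just passed the filter and the 1.5-fold limit there, and the ratio of 2.56 had an interval of 0.86 to 7.75, so the estimated 6 and 13 fragments do not separate the HeyC2 libraries. The level of KRT19 in SKOV3 TET1 thus lay near those of the HeyC2 libraries, all resting on 13 fragments or fewer.

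KRT80 and KRT81 flank KRT7 in the genome and were called higher in HeyC2. KRT80 (chromosome 12, 52562780 to 52585798, minus strand) was at 12.8 FPKM in HeyC2 control and 37.6 in HeyC2 TET1, and at 95.2 and 137.8 FPKM in SKOV3. The relative log2 change of 1.43 in HeyC2 was a 2.94-fold (2.60 to 3.34) higher level, while 0.34 in SKOV3 stayed inside the limit. KRT81, the hair keratin (chromosome 12, 52679697 to 52685318, minus strand), was at 3.03 FPKM in HeyC2 control and 33.3 in HeyC2 TET1, and at 1.05 and 6.60 FPKM in SKOV3. It was the only keratin of the 10 called higher in both lines. Its relative log2 change was 3.03 in HeyC2, the 18th highest of all genes, and 1.70 in SKOV3, with ratios of 10.99 (7.97 to 15.8) and 6.28 (3.50 to 12.5).

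The value of KRT81 is uncertain. KRT86 and KRT83 are near-identical hair keratins of the same cluster. KRT85, another hair keratin there, was listed at 0 in all 4 libraries. The annotated span of KRT86 contains all 5622 bases of KRT81 on the opposite strand, and it shares 2887 bases with KRT7 on the same strand. No source used here says whether counting used strand. KRT86 was at 0.28 and 0.38 FPKM in HeyC2 control and TET1 and at 0.37 and 20.7 FPKM in SKOV3 control and TET1. In HeyC2 TET1 the signal thus stood on KRT81 and in SKOV3 TET1 mostly on KRT86. KRT81, KRT83, KRT85 and KRT86 summed to 3.31 and 33.7 FPKM in HeyC2 and 1.67 and 28.9 FPKM in SKOV3, a ratio of 10.2 and 17.3. The sum had a relative log2 change of 2.95 in HeyC2 and 3.30 in SKOV3. On the sum the TET1 libraries of the lines are close in level, which they are not on KRT81 alone. The controls, at 3.31 FPKM in HeyC2 and 1.67 FPKM in SKOV3, are less close.

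KRT10, the type I keratin of differentiating epidermis (chromosome 17, 38974369 to 38978866, minus strand), was the steadiest member. It was at 15.8 FPKM in HeyC2 control, 16.3 in HeyC2 TET1, 23.6 in SKOV3 control and 28.3 in SKOV3 TET1, with relative log2 changes of -0.01 and 0.06. KRT1 and KRT2, type II keratins of the same differentiating epidermis, were listed at 0 in all 4 libraries. Of the 9 epidermal keratinocyte markers, which include KRT1, KRT2 and KRT9, 6 or 7 were at 0 in each library and their summed FPKM was 0.97 to 2.74.

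Among the basal keratins, KRT5, KRT14 and KRT17 reached 1 FPKM in SKOV3 control alone. KRT15 reached it in HeyC2 as well, at 6.55 FPKM in control and 7.06 FPKM in TET1, and was at 1.18 FPKM in SKOV3 control. KRT5 (chromosome 12, 52908359 to 52914314, minus strand) was listed at 0 in both HeyC2 libraries, at 15.6 FPKM in SKOV3 control and at 0.42 FPKM in SKOV3 TET1. Its relative log2 change in SKOV3 was -3.73, the 20th lowest of all genes, and it was 36.8-fold lower (16.0 to 97.6) in TET1, with about 228 and 6 fragments. KRT14, its type I partner, was at 1.35 FPKM and KRT17 at 1.71 FPKM in SKOV3 control, and both were listed at 0 in the other 3 libraries. These correspond to about 14 and 16 fragments, both genes failed the filter, and no fold is given for them. KRT16, KRT14 and KRT17 are near-identical over long stretches, and their sum was 3.52 FPKM in SKOV3 control. TP63, a regulator of basal keratin genes, was at 0.03 FPKM or lower in every library.

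Promoter sequences of RefSeq (GRCh38.p14, 250 bases before to 50 after the start) were matched for 3 of the 10 genes, KRT8, KRT10 and KRT5, and not for KRT7, KRT18, KRT19, KRT80, KRT81, KRT14 and KRT17. The KRT8 entry begins at an outer start, since RefSeq gives the gene 52.7 kb and the main GENCODE transcript covers 7.9 kb, so it is not shown. KRT5, which was lower in SKOV3 TET1, and KRT10, which was steady, are shown because TET1 oxidises methylated cytosine in CG dinucleotides, and these are in capitals in the 250 bases before each start.
KRT5, chr12:52520395-52520644, minus strand: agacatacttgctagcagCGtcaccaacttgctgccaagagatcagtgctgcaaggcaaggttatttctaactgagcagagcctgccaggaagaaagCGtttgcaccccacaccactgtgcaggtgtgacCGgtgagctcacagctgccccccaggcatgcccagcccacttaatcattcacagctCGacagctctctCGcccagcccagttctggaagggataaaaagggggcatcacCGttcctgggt
KRT10, chr17:40822615-40822864, minus strand: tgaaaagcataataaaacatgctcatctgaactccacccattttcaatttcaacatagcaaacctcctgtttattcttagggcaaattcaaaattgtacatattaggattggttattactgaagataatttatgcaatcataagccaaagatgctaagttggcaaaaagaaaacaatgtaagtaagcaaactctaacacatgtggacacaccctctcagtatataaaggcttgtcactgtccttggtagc
Over the whole window of 300 bases KRT5 held 7 CG and KRT10 held 1, where the median of 35097 RefSeq promoters was 14. The letters TATAAA, searched on both strands, were found in KRT10 and not in KRT5, and in 11.5% of all promoters. GGGCGG and TGANTCA were in neither, and in 44.9% and 7.71% of all promoters. These are matches of letters, and methylation was not measured in these files.

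**Figure D2:**
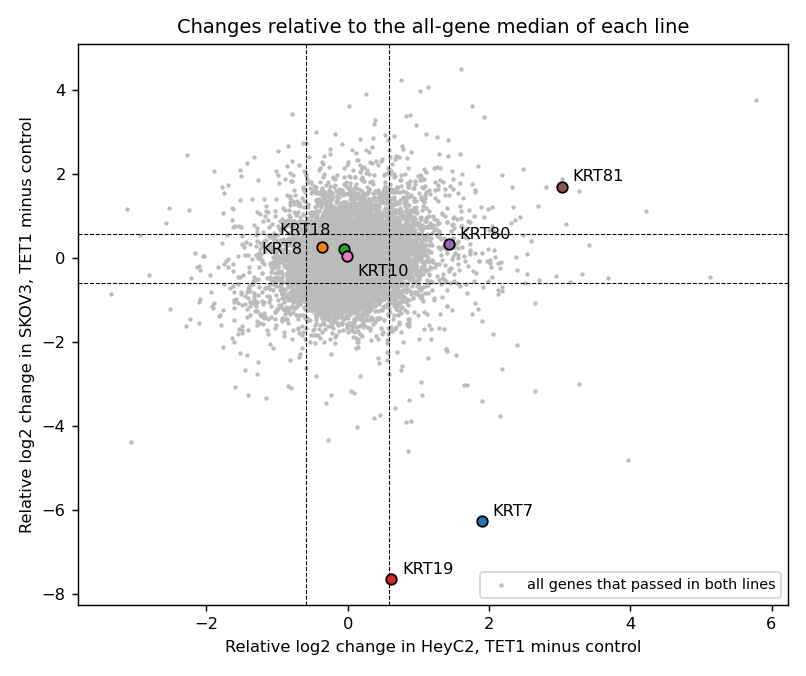
Relative log2 change in HeyC2 (horizontal) and SKOV3 (vertical) of each gene that passed the filter in both lines (grey points), with the 7 keratins that did so as coloured points, and dashed lines at 1.5-fold. KRT7 at 1.90 and -6.26 and KRT19 at 0.62 and -7.65 lie below all other genes on the vertical axis, KRT81 at 3.03 and 1.70 is high in both, and KRT8, KRT18 and KRT10 lie inside the lines.

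Summed over the 10 genes, the keratin level was higher in TET1 in HeyC2 and lower in TET1 in SKOV3. The sum was 1175 FPKM in HeyC2 control and 1978 in HeyC2 TET1, and 2684 FPKM in SKOV3 control and 1226 in SKOV3 TET1. KRT7 made up 24.7% of the sum in HeyC2 control and 56.8% in HeyC2 TET1, and 57.3% and 1.79% in SKOV3 control and TET1. KRT8 and KRT18 together were 853.3 and 765.1 FPKM in HeyC2 and 752.8 and 1030.1 FPKM in SKOV3, which spans a smaller range than KRT7 alone. As a share of the sum they were 84.0% in SKOV3 TET1 against 28.1% in SKOV3 control. Type II keratins exceeded type I keratins in every library, by a ratio of 1.98 and 3.99 in HeyC2 control and TET1 and 4.65 and 3.31 in SKOV3 control and TET1. The 10 genes held 98.2% to 99.8% of the FPKM of all 55 keratin symbols.

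**Figure D3:**
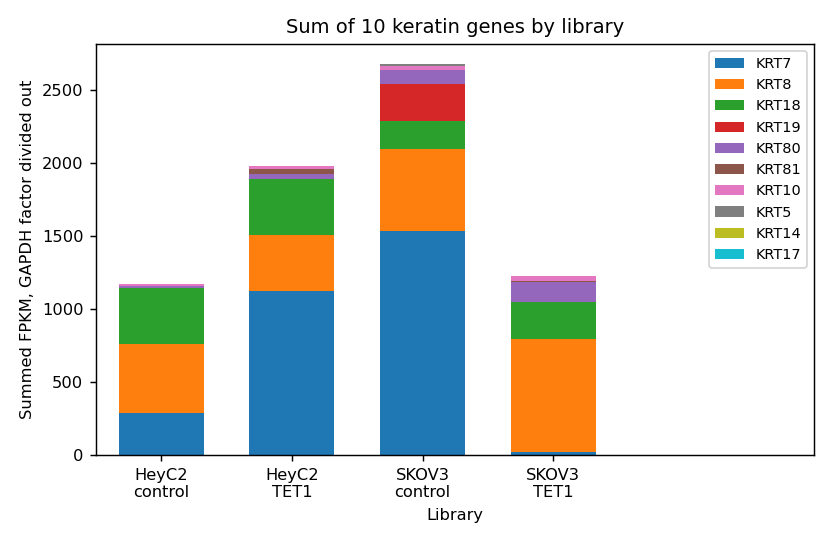
Stacked FPKM of the 10 keratin genes in each of the 4 libraries, with the GAPDH factor divided out and each colour 1 gene. The KRT7 block grows from 289.7 to 1125 FPKM in HeyC2 and shrinks from 1537 to 22.0 FPKM in SKOV3, where the KRT19 block also disappears.

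The controls already differed between the lines. Here the relative log2 difference is HeyC2 control minus SKOV3 control, minus the all-gene median of -0.27 over 12488 genes. Of the 8 keratins that passed, 2 were called higher in HeyC2 control, KRT18 and KRT81, where 29% of all genes tested were, and 4 were called lower, KRT7, KRT19, KRT80 and KRT5, where 28.6% were. KRT19 and KRT5 passed here only through SKOV3 control, where they are high, so they had to differ. The values were 1.23 for KRT18, 1.24 for KRT81, -2.14 for KRT7, -2.54 for KRT80, -3.78 for KRT5 and -7.04 for KRT19. KRT5 is listed at 0 in HeyC2 control, so its value is set by the pseudocount and was -7.00 with 0.1 FPKM and -10.3 with 0.01 FPKM, where KRT19 was at -8.17 and -8.36. KRT8, at 0.03, and KRT10, at -0.29, were inside the limit. In SKOV3 control the order of levels was KRT7, KRT8, KRT19, KRT18, KRT80, KRT10, KRT5, KRT17, KRT14 and KRT81, of which the last 3 rest on 13 to 16 fragments each and cannot be ordered. In HeyC2 control it was KRT8, KRT18, KRT7, KRT10, KRT80, KRT81 and KRT19, with KRT5, KRT14 and KRT17 at 0.

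The keratin genes lie in 2 clusters. All type II genes and KRT18 lie on chromosome 12 (GRCh37, 52562780 to 53346690, 27 keratin symbols), and the other type I genes on chromosome 17 (38810917 to 39781094, 28 symbols). In SKOV3, KRT7 was lower by 6.26 while KRT80, 40.5 kb to one side, was at 0.34 and KRT81, 33.7 kb to the other, was at 1.70. Neighbours were taken as genes within 1 Mb of a cluster, without keratins and without other symbols that begin with KRT. Around the chromosome 12 cluster 29 passed in SKOV3, with a median relative log2 change of 0.28 and a range of -1.30 to 2.32. Around the chromosome 17 cluster 45 passed, with a median of 0.28 and a range of -1.79 to 2.93. KRT7, KRT19 and KRT5 were thus each lower than every one of these neighbours. In HeyC2 the neighbours had a median of 0.10 (27 genes) on chromosome 12 and -0.06 (43 genes) on chromosome 17, and KRT7, KRT80 and KRT81 were each above the highest neighbour on chromosome 12, at 0.97. The neighbours thus leave out the genes of keratin-associated proteins inside the chromosome 17 cluster. Of these, KRTAP2-3 was at 54.77 and 4.52 FPKM in HeyC2 control and TET1, a relative log2 change of -3.39. KRTAP2-1 was at 14.55 and 0.77 FPKM (-3.19) and passed only through control, and KRTAP4-9 was at 1.16 and 1.11 FPKM (-0.09). KRT15, whose 5′ end lies 1.1 kb from KRT19, was at 6.55 and 7.06 FPKM in HeyC2 control and TET1 and at 1.18 and 0.45 FPKM in SKOV3.

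**Figure D4:**
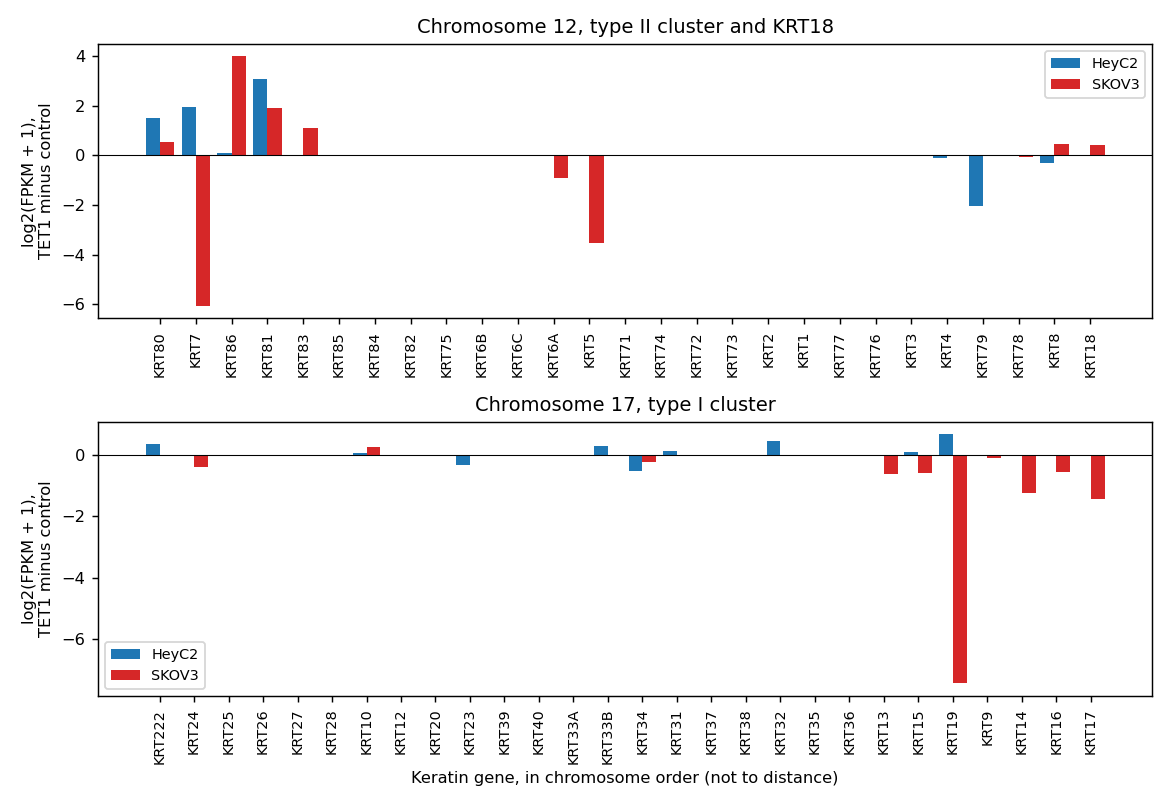
Difference of log2(FPKM + 1), TET1 minus control, for the 27 keratin symbols on chromosome 12 (top) and the 28 on chromosome 17 (bottom), in chromosome order and not to distance, with blue bars for HeyC2 and red bars for SKOV3 and no median subtracted. Most symbols are at 0 in both lines. The long red bars downward are KRT7, KRT5 and KRT19, bars of both colours point upward at KRT80 and KRT81, and a red bar points upward at KRT86.

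Outside these 10 genes, 6 of the other 45 keratin symbols reached 1 FPKM in any library, and 28 were listed at 0 in all 4. KRT86 and KRT83 were described with KRT81 or belong to its family, with KRT83 at 0.25 and 1.67 FPKM in SKOV3 control and TET1 and at 0 in HeyC2. KRT79 was at 4.77 and 0.39 FPKM in HeyC2 control and TET1, a relative log2 change of -2.11, and at 0 in SKOV3. KRT79 passed the filter in HeyC2 only through the control library. KRT34 was at 4.11 and 2.58 FPKM in HeyC2 and at 0.18 and 0 in SKOV3. KRT32 was at 0.66 and 1.29 FPKM in HeyC2 and at 0 in SKOV3. KRT86 in SKOV3 TET1 was the highest of these values.

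Keratin filaments are anchored at desmosomes and hemidesmosomes. Of a list of 22 anchor genes, 11 passed in HeyC2, of which 1 was called higher and 3 lower (12.5% of all genes tested were higher and 9.17% lower), with a median of -0.29. In SKOV3 14 passed, of which 0 were higher and 7 lower (20.7% and 18.2% of all genes tested), with a median of -0.52. DSP, the desmoplakin gene that ties keratins to desmosomes, was at 3.06 and 0.38 FPKM in HeyC2 control and TET1 and at 68.9 and 44.8 FPKM in SKOV3, relative changes of -1.61 and -0.80. DSC2, a desmosomal cadherin, had the highest relative change in both lines, at 0.77 in HeyC2 and 0.53 in SKOV3, and COL17A1, a hemidesmosome collagen, the lowest in SKOV3, at -1.58. COL17A1 was at 2.77 and 0.44 FPKM in SKOV3 control and TET1. DSP in HeyC2 and COL17A1 in SKOV3 passed only through the control library, so for these a difference was built into the filter. JUP, the plakoglobin gene near the chromosome 17 cluster, was at 0.04 and 0.10 FPKM in HeyC2 and 41.4 and 47.8 FPKM in SKOV3.

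Of 16 other intermediate filament genes, 8 passed in HeyC2, of which 2 were called higher and 3 lower (12.5% of all genes tested were higher and 9.17% lower), with a median of -0.10. In SKOV3 9 passed, of which 2 were higher, near the share of all genes, and 5 lower (20.7% and 18.2% of all genes tested), with a median of -0.74. VIM, the vimentin gene of mesenchymal cells, was at 7496 and 2927 FPKM in HeyC2 control and TET1 and at 1223 and 834.8 FPKM in SKOV3, with relative changes of -1.41 and -0.74, so it exceeded the sum of the 10 keratins in both HeyC2 libraries and stood below it in both SKOV3 libraries. DES, the muscle filament gene, was listed at 0 in HeyC2 control and at 2.27 FPKM in HeyC2 TET1. BFSP1, the other gene called higher in HeyC2, was at 0.5 and 2.34 FPKM. In SKOV3 the highest was PRPH, a neuronal filament gene, at 0.42 and 6.14 FPKM, and the lowest was LMNB2, a nuclear lamin gene, at 251.9 and 103.5 FPKM. DES and BFSP1 in HeyC2 and PRPH in SKOV3 passed only through the TET1 library, so for these a difference was built into the filter.

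A list of 8 genes was taken for keratin-binding proteins, but the names of KRTCAP2 and KRTCAP3 refer to keratinocytes, not to keratin binding. Of the 8, 7 passed in HeyC2, with a median of 0.02. Of these 7, 1 was called higher and 0 lower (12.5% of all genes tested were higher and 9.17% lower). In SKOV3 8 passed, of which 2 were higher and 2 lower (20.7% and 18.2% of all genes tested), with a median of 0.23. These counts are near the shares of all genes. SFN, the 14-3-3 sigma gene, whose protein binds keratins, was at 59.2 and 112.8 FPKM in HeyC2 control and TET1 and at 164.5 and 6.82 FPKM in SKOV3. Its relative changes of 0.86 and -4.59 had the signs of those of KRT7. HSPB1, a small heat shock protein gene, was at 359.1 and 299.4 FPKM in HeyC2 and 410.4 and 1020.4 FPKM in SKOV3, and KRTCAP3 had the highest relative change in SKOV3, at 1.78. KRTCAP3, at 0.59 and 5.24 FPKM in SKOV3 control and TET1, passed there only through the TET1 library.

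A list of 25 regulators mixed epithelial factors with factors that oppose the epithelial state (ZEB1, ZEB2, SNAI1, SNAI2, TWIST1). It also held general factors (SP1, SP3) and splicing regulators (ESRP1, ESRP2). Of the 25, 13 passed in HeyC2, of which 3 were called higher and 1 lower (12.5% of all genes tested were higher and 9.17% lower), with a median of 0.12. In SKOV3 17 passed, of which 2 were higher and 7 lower (20.7% and 18.2% of all genes tested), with a median of -0.29. The 7 include SNAI2, at -1.12, and ESRP2, at -1.72, so they are not epithelial transcription factors alone. ESRP2, at 4.03 and 0.74 FPKM in SKOV3 control and TET1, passed only through the control library. FOSL1, an AP-1 subunit, was at 259.3 and 370.7 FPKM in HeyC2 and at 132.0 and 10.4 FPKM in SKOV3, with relative changes of 0.46 and -3.74. FOS, another AP-1 subunit, had the highest change in HeyC2, at 3.32, and TFAP2C the lowest, at -0.60. ELF3, an epithelial ETS factor, had the highest change in SKOV3, at 1.08, with 22.5 and 55.5 FPKM in control and TET1. GRHL2 was listed at 0 in all 4 libraries.

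Genes were ranked by likeness to each of the 4 simple epithelial keratins, as the distance over 3 values, the relative changes in HeyC2 and SKOV3 and the relative difference of the controls, among 11133 other genes that passed in both lines. The nearest to KRT7 were SFN, at a distance of 2.18, SNCG, at 2.61, and CXCL8, at 2.68. The nearest to KRT19 were ID3 at 4.68, ESRG at 4.86 and UCA1 at 4.93, and KRT7 was the 5th nearest, at 5.25. The nearest to KRT8 were TOPORS, TTC26 and PPP3R1, at 0.03 to 0.05, and the nearest to KRT18 were CTDNEP1, MAGED1 and KCTD21-AS1, at 0.07 to 0.10. The larger distances of KRT7 and KRT19 follow from their extreme changes in SKOV3, which enter the distance.

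Other marker genes were read in the same libraries, and they did not all change or go in 1 direction. CDH5, a cadherin of endothelial cells, was at 18.9 and 94.6 FPKM in HeyC2 control and TET1, while PECAM1 and VWF were below 1 FPKM in all libraries, and none of 4 leukocyte markers reached 1 FPKM in any. MSLN, a marker of mesothelial and ovarian tumour cells, was at 46.6 and 77.5 FPKM in HeyC2 and at 10.3 and 0.08 FPKM in SKOV3, and MUC1 was at 17.9 and 5.40 FPKM in SKOV3. PAX8 was at 74.6 and 131.1 FPKM, FOLR1 at 58.2 and 55.4 FPKM and SOX17 at 79.4 and 42.2 FPKM in SKOV3. The 9 ovarian markers together summed to 240.8 and 235.6 FPKM in SKOV3 and to 183.1 and 276.2 FPKM in HeyC2. Of the 4 mesenchymal markers, VIM alone was called lower in both lines. FN1 went from 5557 to 2619 FPKM in HeyC2 and from 32.6 to 45.4 FPKM in SKOV3, relative changes of -1.14 and 0.28. CDH2 went from 26.9 to 43.2 FPKM in HeyC2 (0.61) and from 21.1 to 28.0 FPKM in SKOV3 (0.20). ZEB1 had relative changes of 0.02 and -0.21. EPCAM was at 15.4 and 16.1 FPKM and CDH1 at 2.24 and 6.30 FPKM in SKOV3 control and TET1. In the same libraries CLDN3 was at 12.1 and 21.1 FPKM, CLDN4 at 24.2 and 14.5 FPKM and CLDN7 at 0.99 and 2.37 FPKM. The part of these other genes in the keratin results was not tested.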

How the data were processed

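The FPKM were deposited by the authors as 1 table per cell line; per the labels, paired-end TruSeq RNA libraries were aligned to hg19 with Bowtie2 2.2.6 and quantified with RSEM 1.2.17. The annotation is not given in the sources used here. The factor by which each TET1 column had been scaled to GAPDH was recovered from the spacing of values below 40 FPKM (100% on the grid) and divided out, which differs from using the columns as deposited. Log2 changes used a pseudocount of 1 FPKM, which understates changes of low genes, and the all-gene median was subtracted. Genes named were the 10 keratins, other keratins of at least 1 FPKM, the extremes of each list, the markers and the nearest genes by likeness; the genomic neighbours, GRHL2, TP63, JUP, and other genes outside that rule were named after their values were seen. The keratins and lists were chosen with earlier results of these data known. Coordinates and transcript lengths came from GENCODE release 44 on GRCh37, which is the build hg19. Depth was estimated from low FPKM of genes with 1 transcript. Of 20 housekeeping genes, 0 were listed at 0 in any library. On simulated data for HeyC2, 200 of 200 planted 4-fold changes among 26506 genes were called. A 4-fold change lies well past the 1.5-fold limit, and no rate of false calls is given. The result is not split by level, so it does not show how smaller changes or low genes such as KRT19 in HeyC2 would fare. Nor does it show how variation between replicate libraries would affect the calls. Python 3.11.15, numpy 2.4.6, pandas 2.3.3, scipy 1.17.1 and matplotlib 3.10.9 were used.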

Additional observations from a re-analysis of the deposited data

Results flagged for a closer look

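KRT7 and KRT19 are listed because their relative log2 changes had opposite signs in the 2 cell lines, both past 1.5-fold. For KRT7 they were 1.90 in HeyC2 and -6.26 in SKOV3, and for KRT19 they were 0.62 in HeyC2 and -7.65 in SKOV3. The difference between the lines was not tested, since each condition has 1 library, and the HeyC2 value of KRT19 rests on about 6 and 13 fragments.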

How the results depend on the processing

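The alternatives were pseudocounts of 0.1 and 0.01 FPKM, no filter, a mean of at least 5 FPKM, the columns as deposited with the median subtracted, no centring, TPM, upper-quartile scaling, near-identical paralogs summed, and a 2-fold threshold. Leaving out a replicate was not possible with 1 library per condition. A value counted as moved when it changed by more than the SD of the log2 changes of the 500 genes nearest in expression, and a count when it changed by more than 1.5 times. Of 196 values of single keratins under these alternatives, 188 did not move, 8 moved and 0 changed sign from a called value. This SD was 0.46 to 0.86 within the lines and 1.28 to 1.76 between the controls. It is wide, so a call could be gained or lost without a move, and some alternatives barely touch some genes. KRT7 stayed between 1.87 and 2.04 in HeyC2 and between -6.34 and -6.05 in SKOV3, and KRT19 in SKOV3 between -9.30 and -7.45. KRT19 in HeyC2 ranged from 0.31 with the columns as deposited, where it is no longer called, to 1.28 with a pseudocount of 0.01. KRT80 in SKOV3 went from 0.34 to 0.59 in TPM, just past the limit. KRT81 in SKOV3 went from 1.70 to 3.30 with paralogs summed. The median of the keratins in HeyC2 moved from 0.62 to 1.28 with a pseudocount of 0.01, both being the values of KRT19. It moved to 0.025 without a filter, where the 3 genes at 0 enter. In SKOV3 it was 0.14 and turned to -0.49 without a filter, where 6 are called, 1 higher and 5 lower, and to -0.82 in TPM, where 10 keratins pass and 7 are called, 2 higher and 5 lower. Depth limits KRT19 in HeyC2, KRT5 and KRT19 in SKOV3 TET1, KRT14 and KRT17 everywhere, and TET1 itself in HeyC2.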
